A study of Mus musculus with 4 samples.

Results

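The genes described here encode 10 adaptor proteins that act just inside the T cell receptor (TCR): Lat, Lcp2, Grap2, Grap, Skap1, Sh2d2a, Sit1, Trat1, Sla and Sla2. They were listed by name for their function, with earlier results of these data known, and each name matched 1 of the 52636 genes in the deposited count table. RNA was sequenced from sorted CD4+CD62L+CD25bright regulatory T cells of 7-week-old C57BL/6 mice, 2 libraries per genotype, numbered replicates 2 and 3 in the labels. One genotype was Vav1R63W, a knock-in allele of the guanine exchange factor Vav1 that binds this adaptor complex, and the other was Vav1R63WThemis1-T-/-, the same allele with Themis1 deleted in T cells, written below as the Themis1-T-/- label. Both groups therefore carry the mutant Vav1, and the comparison is between the labels for Themis1 on that background. The labels name neither the driver of the T cell deletion nor whether the replicates came from separate mice, so the spread behind every p-value is that of these libraries and may be technical.

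Adaptors have no enzymatic activity and work by holding other proteins together. When the TCR is engaged, the kinase ZAP-70 phosphorylates the membrane scaffold LAT and the cytosolic scaffold SLP-76, which are joined by the bridging adaptor GADS. The complex gathers phospholipase C-gamma and Vav1, and so links the receptor to calcium, Ras and actin. Other adaptors tune this step, among them SLAP and SLAP-2, which lower the amount of TCR at the surface together with the ubiquitin ligase Cbl. Themis1 binds the adaptor GRB2 and the phosphatase SHP-1, and the series title places it upstream of SHP-1, Vav1 and RelA.

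Reads assigned to genes numbered 13963670 to 15953194 per library. Levels are given as CPM, a gene's reads per megaread of all gene-assigned reads in the library. Themis, the gene that encodes Themis1, had 283 reads in Vav1R63W replicate 2 and 97 in replicate 3. Under the Themis1-T-/- label, replicate 2 had 685 reads and replicate 3 had 0. Replicate 2 of that label thus goes against it, and each direction below is between labels. Gene counts check a deletion only where the deleted exons carry reads, which these values do not show. The regulatory T cell markers were present, with Foxp3 between 636 and 1014 CPM and reads for all 9 listed markers. Of the B cell markers, Ms4a1, Pax5 and Cd22 had no read in any library, while Ighm lay between 1111 and 1307 CPM. The summed B cell markers were at 1179 and 1303 CPM under the Vav1R63W label, and at 1312 and 1370 CPM under the other. All 6 monocyte and macrophage markers had no read in any library. The part of Ighm-bearing RNA in the adaptor levels was not tested.

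All 10 adaptor genes passed the filter on low counts, and none passed the test of genotype, so no difference was shown beyond the spread of the libraries. For 9 of the 10 the fitted level was higher under the Themis1-T-/- label. The log2 fold changes, given throughout as the Themis1-T-/- label over Vav1R63W, ran from -0.03 for Sit1 to 0.46 for Sla. The edgeR quasi-likelihood test called 0 of 10 (edgeR adjusted p = 1.000 for each), against 0 of 10216 genes tested, which is 0%. No adaptor gene reached an unadjusted p under 0.05, a level reached by 509 genes, or 4.98%. DESeq2, which called 206 genes (1.92% of 10748), called 0 of the 10, with a smallest adjusted p among them of 0.695, for Sla. In the authors' deposited table, where 123 genes (1.56% of 7865) have an adjusted p under 0.05, the smallest adjusted p of an adaptor gene is 0.330, again for Sla. In RNA from bulk cells, fewer cells of a type and less RNA per cell cannot be told apart.

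**Figure D1:**
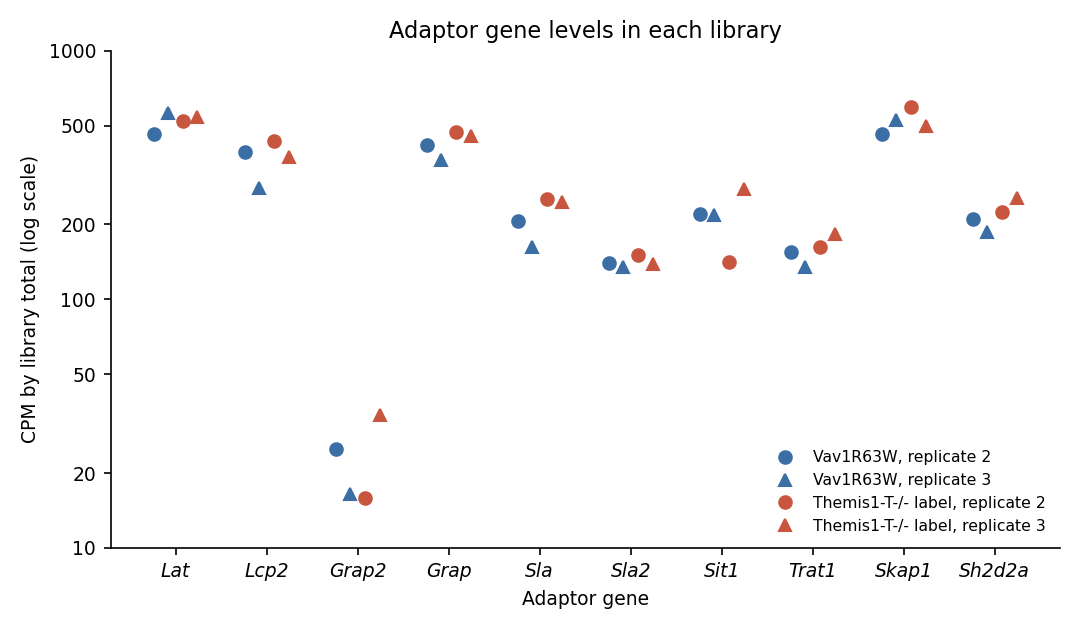
CPM by library total (log scale) of the 10 adaptor genes in each of the 4 libraries, with Vav1R63W in blue, libraries under the Themis1-T-/- label in red, circles for replicate 2 and triangles for replicate 3. Red symbols lie above both blue ones for Grap, Sla, Trat1 and Sh2d2a, and Grap2 lies far below the others, between 15.9 and 34.3 CPM.

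Lat encodes the membrane scaffold itself (ENSMUSG00000030742, GRCm38 chromosome 7, 126363824 to 126369570, minus strand). It was at 464 and 564 CPM in Vav1R63W replicates 2 and 3, and at 523 and 540.3 CPM under the Themis1-T-/- label (replicates 2 and 3). The second pair fell inside the range of the first, so the groups overlapped fully. The means were 514 ± 70.5 and 532 ± 12.0 CPM (SD, n = 2 each), and the log2 fold change was 0.07 (95% interval -0.38 to 0.53).

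Lcp2 encodes SLP-76, the cytosolic scaffold to which Vav1 and NCK bind (ENSMUSG00000002699, chromosome 11, 34046920 to 34092295, plus strand). It was at 393 and 280.2 CPM in Vav1R63W replicates 2 and 3, and at 434 and 373 CPM under the Themis1-T-/- label. Vav1R63W replicate 3 was the low library, and the other Vav1R63W library exceeded one of the Themis1-T-/- pair. The log2 fold change was 0.29 (95% interval -0.29 to 0.87). It was 0.09 without Vav1R63W replicate 3 and 0.52 without Vav1R63W replicate 2.

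Grap2 encodes GADS, the bridge between LAT and SLP-76 (ENSMUSG00000042351, chromosome 15, 80572594 to 80652854, plus strand). It had 351 and 237 reads under the Vav1R63W label, or 25.1 and 16.5 CPM, and 253 and 479 reads, or 15.9 and 34.3 CPM, under the Themis1-T-/- label. The Themis1-T-/- pair held both the lowest and the highest value. Its 95% interval of the log2 fold change, -2.10 to 2.72, was the widest of the 10. The sign of its fold change was set by single libraries: it was 0.31 with all 4, -0.39 without replicate 3 of the Themis1-T-/- label, and 0.77 without replicate 2 of that group.

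Grap encodes a hematopoietic relative of GRB2 that can join LAT to the Ras activator SOS (ENSMUSG00000004837, chromosome 11, 61653265 to 61672784, plus strand). It was at 418 and 363 CPM in Vav1R63W replicates 2 and 3, and at 473 and 456 CPM under the Themis1-T-/- label. Both libraries of the second group lay above both of the first. The means were 390.5 ± 38.9 and 464 ± 11.8 CPM (SD, n = 2 each), a ratio of 1.19 and a log2 fold change of 0.28 (95% interval -0.10 to 0.65). In the authors' deposited table Grap has a log2 fold change of 0.271 with p = 0.0384 and an adjusted p of 0.443.

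Sla encodes SLAP, which binds the TCR zeta chain and recruits Cbl (ENSMUSG00000022372, chromosome 15, 66780819 to 66831829, minus strand). It was at 207 and 162 CPM in Vav1R63W replicates 2 and 3, and at 252 and 246 CPM under the Themis1-T-/- label. The groups did not overlap, and the 2 Themis1-T-/- libraries were close to each other. The means were 185 ± 31.9 and 249 ± 4.46 CPM (SD, n = 2 each), a ratio of 1.35 and the highest log2 fold change of the 10, at 0.46 (95% interval -0.09 to 1.00). In the authors' deposited table Sla has a log2 fold change of 0.432 with p = 0.0207 and an adjusted p of 0.330. Sla lies within the span of Tg, which runs on the opposite strand, but shares 0 exon bases with it, and Tg had at most 14 reads in a library.

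Trat1 encodes TRIM, a transmembrane adaptor that associates with the TCR zeta chain (ENSMUSG00000030775, chromosome 16, 48730774 to 48772021, minus strand). It was at 155 and 134 CPM in Vav1R63W replicates 2 and 3, and at 162 and 182 CPM under the Themis1-T-/- label, with no overlap between the groups. The gap between the nearest libraries of the groups, 155 and 162 CPM, was smaller than the gap within either group. The log2 fold change was 0.28 (95% interval -0.34 to 0.90).

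Sh2d2a encodes TSAd, an SH2 adaptor that binds the kinase Lck (ENSMUSG00000028071, chromosome 3, 87846755 to 87855722, plus strand). It was at 210.2 and 186 CPM in Vav1R63W replicates 2 and 3, and at 225 and 255 CPM under the Themis1-T-/- label, again without overlap. As for Trat1, the nearest libraries of the groups lay closer together than the libraries within either group. The log2 fold change was 0.30 (95% interval -0.22 to 0.82).

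Sit1 encodes SIT, a transmembrane adaptor that binds SH2-domain phosphatases and restrains TCR signals (ENSMUSG00000028460, chromosome 4, 43482081 to 43483734, minus strand). It was at 219 and 218 CPM under the Vav1R63W label, and at 141 and 277 CPM under the Themis1-T-/- label (replicates 2 and 3). The Vav1R63W libraries were close together (219 ± 0.810 CPM), and the 2 others lay on either side of them (209 ± 96.3 CPM; SD, n = 2 each). Its fold change depended on which of these libraries was kept. It was -0.03 on the log2 scale with all 4 (95% interval -1.09 to 1.03), 0.39 without replicate 2 of the Themis1-T-/- label, and -0.64 without replicate 3 of that group.

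Both libraries under the Themis1-T-/- label lay above both Vav1R63W libraries for 4 of the 10 adaptor genes (Grap, Sla, Trat1 and Sh2d2a), and below them for 0. Over all genes tested the shares were 15.1% above and 18.7% below. Among the 2005 genes tested whose mean reached 100 CPM, as did that of 9 of the 10, the shares were 17.3% above and 16.7% below. With 2 libraries against 2, an exact two-sided permutation test of a single gene cannot go below p = 0.333. The median log2 fold change of the 10 was 0.28, against 0.00 over all 10216 genes tested and 0.03 over those at 100 CPM or more, and 9 of 10 were positive, against 50.1% and 53.8% of genes. Without replicate 2 of the Themis1-T-/- label, which carried Themis reads, the median was 0.33, with 10 of 10 positive, and the log2 fold changes of the 4 genes without overlap were 0.27 for Grap, 0.46 for Sla, 0.38 for Trat1 and 0.41 for Sh2d2a. Without replicate 3 of that group the median was 0.17, with 8 of 10 positive, and the same 4 genes were at 0.27, 0.45, 0.16 and 0.18. These 4 genes were picked for their lack of overlap, so leaving out a library could hardly change their sign. Vav1R63W replicate 3 was the lowest of the 4 libraries for 6 of the adaptor genes and the highest for 1, and without it the median was 0.20.

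**Figure D2:**
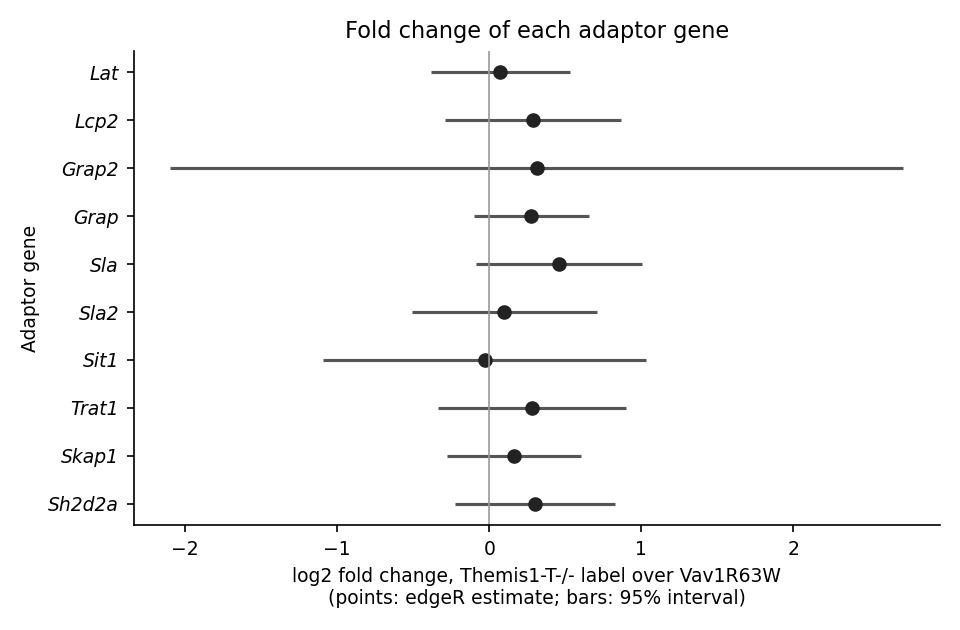
edgeR log2 fold change of each adaptor gene, libraries under the Themis1-T-/- label over Vav1R63W, with points for the estimate and bars for its 95% interval, n = 2 libraries per group. Every interval spans 0, 9 of 10 points lie to its right, and Grap2 has the widest interval, -2.10 to 2.72.

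The spread of the adaptor genes over the 4 libraries was described by the ratio of the highest to the lowest library. This ratio was 1.13 for Sla2, 1.21 for Lat, 1.29 for Skap1, 1.30 for Grap, 1.36 for Trat1 and 1.37 for Sh2d2a. It was 1.55 for Lcp2, 1.56 for Sla, 1.96 for Sit1 and 2.16 for Grap2. Over the 2005 genes tested whose mean reached 100 CPM the median ratio was 1.52, with an interquartile range of 1.30 to 1.87, so 6 of the 9 adaptor genes at that level were below the median.

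To set the genes beside each other, CPM was divided by the length of each gene's merged exons in kilobases. On this per-length scale Grap was highest at 238 CPM per kilobase (range over the 4 libraries 202 to 264), followed by Lat at 189 (168 to 204) and Sit1 at 169.6 (112 to 219.7). Grap and Lat overlapped over the libraries, as did Lat and Sit1. Lcp2 at 83.0 (62.8 to 97.4) and Skap1 at 69.6 (61.8 to 79.4) followed, overlapping each other and lying below every library of Sit1. Then came Sla2 at 45.5 (43.3 to 48.8), Sh2d2a at 36.9 (31.4 to 42.9), Trat1 at 33.9 (28.8 to 39.1) and Sla at 23.6 (17.7 to 27.5). Of these only Sh2d2a and Trat1 overlapped over the libraries, and Sh2d2a was above Trat1 within each library. GADS RNA, from Grap2, was lowest at 3.67 CPM per kilobase (2.54 to 5.49), below every library of every other adaptor gene.

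Merged exons include those of rarely used transcripts, and the order moved with the length used and with the treatment of shared reads. Divided by the longest coding transcript in the annotation's basic set, a choice made after seeing the data, Lat came first at 423 CPM per kilobase, then Skap1 at 279 and Grap at 257. Sla moved from 23.6 to 73.5, and Grap2 remained lowest at 4.19. The unstranded counts of Sla2 and Skap1 leave out reads shared with a neighbouring gene, while their merged exons keep the shared bases. With the strand columns summed and merged exons as the length, also chosen after seeing the data, Sla2 was at 125 CPM per kilobase (117 to 134) and Skap1 at 97.3 (86.8 to 105). Both were then above Lcp2 at 84.5 (62.8 to 97.9), with Skap1 and Lcp2 overlapping.

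The counts of Sla2 and Skap1 need a further description, because a neighbouring gene on the opposite strand shares exon sequence with each. The unstranded counting leaves out reads that fall on 2 genes, while the deposited strand columns assign each read to the gene on 1 strand at a time. The sum of the strand columns exceeded the unstranded count by 0 reads for Lat, Grap2, Sla, Trat1 and Sh2d2a in every library, by at most 1 for Sit1 and by 3 to 14 for Grap. Lcp2 shares 282 exon bases with 4930469K13Rik on the opposite strand. Its strand columns added 81 and 0 reads in Vav1R63W replicates 2 and 3, and 33 and 271 under the Themis1-T-/- label, at most 4.95% of the strand sum. For Sla2 the strand columns added 3680 and 4057 reads in Vav1R63W replicates 2 and 3, and 3376 and 3192 under the Themis1-T-/- label, which was 58.3% to 67.7% of the strand sum. Among the 8068 genes with a mean of at least 100 reads, the strand columns added 25% or more of the sum for 7.46%, and the median gene gained 0%.

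Sla2 encodes SLAP-2, the relative of SLAP that also recruits Cbl (ENSMUSG00000027636, chromosome 2, 156872457 to 156887192, minus strand). Its 3′ untranslated region runs into Rab5if, which lies on the plus strand from 156863128 to 156873563, and the annotation gives them 731 shared exon bases. Rab5if gained exactly as many reads from the strand columns as Sla2 did in each library. The counting forces this, because each shared read is counted once for either gene over the strand columns. The RefSeq model of Sla2 on the same build ends at 156874151, short of Rab5if, so which gene gave the shared reads is not known from these counts. In the unstranded column Sla2 was at 141 and 134 CPM under the Vav1R63W label and 151 and 138 CPM under the Themis1-T-/- label, overlapping groups with a log2 fold change of 0.10 (95% interval -0.51 to 0.71). With the shared reads included it was at 403 and 416 CPM, and at 363 and 367 CPM. On that count both Themis1-T-/- libraries lay below both others, and the log2 fold change was -0.135 (edgeR adjusted p = 1.000). With CPM scaled by TMM factors, the unstranded values of Sla2 instead lay above in both Themis1-T-/- libraries. The direction of Sla2 therefore changed with whether the shared reads were counted.

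Skap1 encodes SKAP-55, which binds the adaptor ADAP and couples the TCR to integrin adhesion (ENSMUSG00000057058, chromosome 11, 96464593 to 96759130, plus strand). It shares 186 exon bases with the long non-coding RNA gene 2010300F17Rik, which lies on the minus strand. In the unstranded column Skap1 was at 461 and 527 CPM in Vav1R63W replicates 2 and 3, and at 592 and 497 CPM under the Themis1-T-/- label. The groups overlapped, with a log2 fold change of 0.16 (95% interval -0.28 to 0.60). The strand columns added 2611, 3708, 3038 and 2707 reads in the same order of libraries, or 24.3% to 32.8% of the strand sum. The non-coding gene gained the same numbers, which the counting forces. Outside the shared bases it had 0 reads in 3 libraries and 8 in Vav1R63W replicate 3. With the shared reads included Skap1 was at 716 ± 96.9 CPM under the Vav1R63W label and 737 ± 65.2 CPM under the Themis1-T-/- label (SD, n = 2 each), and its log2 fold change was 0.07. The log2 fold change with the shared reads was thus smaller than without them, and the groups overlapped on both counts.

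**Figure D3:**
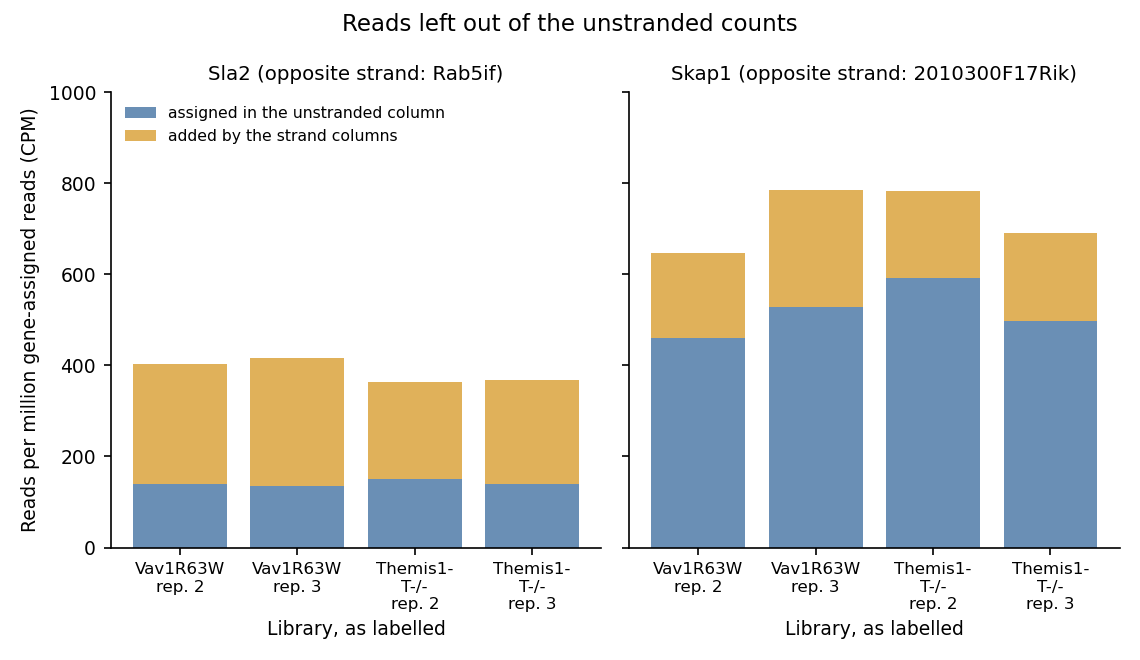
Reads of Sla2 (left) and Skap1 (right) per megaread of gene-assigned reads in each library, with the unstranded count in blue and the reads added by the strand columns in yellow. For Sla2 the added reads are 58.3% to 67.7% of the bar and the whole bars are lower in both libraries under the Themis1-T-/- label, while for Skap1 they are 24.3% to 32.8%.

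Among the other adaptors and scaffolds of T cells, 21 of 26 listed genes could be tested, and 10 had a positive and 11 a negative log2 fold change. Their median was -0.08, their range was -2.43 to 2.41, and 0 passed the edgeR test. Dok2, an inhibitory adaptor that recruits RasGAP, was at 201 and 247 CPM under the Vav1R63W label and 296 and 342 CPM under the Themis1-T-/- label, a log2 fold change of 0.54 ± 0.22 (SE). Lax1, a membrane adaptor that is also in the list of negative regulators below, was at 88.2 and 70.2 CPM against 46.7 and 54.7 CPM. Fyb, which encodes the SKAP-55 partner ADAP and is named here outside the rule, was at 218 and 217 CPM against 187 and 194 CPM. The groups did not overlap for any of these. Of the 21 genes tested, 3 lay above and 3 below in both Themis1-T-/- libraries. Over all genes tested the shares were 15.1% above and 18.7% below, so these counts single out nothing about the list. The genes not tested for lack of reads were Lat2, Lime1, Gab2, Dok3 and Themis2.

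Of the receptor chains and kinases that act before LAT, 10 of 11 were tested, 8 with a positive and 2 with a negative log2 fold change, a median of 0.17 and 0 passing. Cd247, the TCR zeta chain to which SLAP and TRIM bind, was at 103 and 126 CPM under the Vav1R63W label and 284 and 335 CPM under the Themis1-T-/- label (edgeR adjusted p = 0.900). DESeq2 called it (adjusted p = 0.00100), as does the authors' deposited table (adjusted p = 5.43e-07). Cd3g, a signalling chain of the CD3 complex, was at 1131 and 1135 CPM against 1259 and 1302 CPM. Enzymes and actin regulators that LAT and SLP-76 recruit had 16 of 17 genes tested, 6 positive and 10 negative, with a median of -0.15 and 0 passing. Rasgrp1, a Ras activator, was at 109 and 71.5 CPM against 213 and 189 CPM (edgeR adjusted p = 0.900). DESeq2 did not call it (adjusted p = 0.114), whereas the authors' deposited table does (adjusted p = 0.00699). Sos2, another Ras activator, had 200 and 25 reads against 1 and 2. Vav1, named outside the rule because both groups carry its mutant allele, was at 206 and 253 CPM against 160.5 and 73.5 CPM.

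All 15 negative regulators of proximal TCR signalling were tested, 9 with a positive and 6 with a negative log2 fold change, a median of 0.20 and 0 passing. Cbl, the ubiquitin ligase that SLAP and SLAP-2 recruit, was at 59.6 and 72.9 CPM under the Vav1R63W label and 7.21 and 14.2 CPM under the Themis1-T-/- label. This is a log2 fold change of -2.60 ± 0.68 (SE), with an edgeR adjusted p of 0.900. DESeq2 called it (adjusted p = 0.0369), as does the authors' deposited table (adjusted p = 0.00483). The other gene the rule named was Dok2, given above. DESeq2 thus called Cd247 higher and Cbl lower under the Themis1-T-/- label, and edgeR called neither. Sla, at a ratio of 1.35, passed none of these tests. Any link among the changes of Sla, Cd247 and Cbl was not tested. The adaptor genes had the narrowest range of log2 fold changes of the 5 lists, from -0.03 to 0.46. This difference in range was not tested, and the lists differ in the levels of their genes. Most adaptor genes had a mean of at least 100 CPM, whereas the lowest value of any list, -6.13, was that of Sos2, with few reads. Over all genes tested the range was -12.3 to 11.7, and over those at 100 CPM or more it was -1.52 to 2.48.

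**Figure D4:**
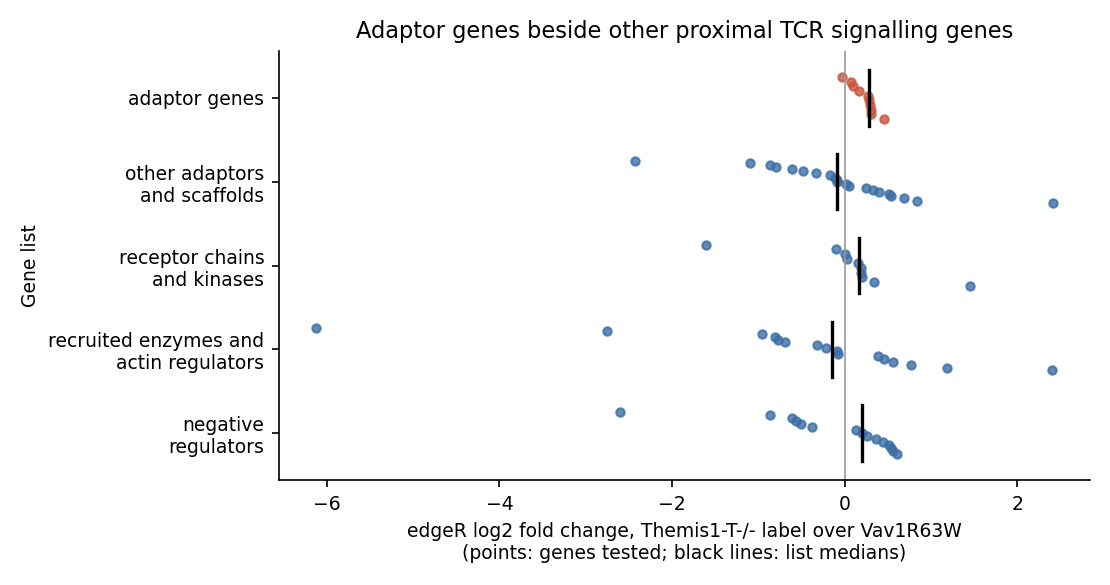
edgeR log2 fold changes (libraries under the Themis1-T-/- label over Vav1R63W) of the genes tested in each list, 1 point per gene, with a black line at the list median. The adaptor genes (red) lie between -0.03 and 0.46, whereas each of the other lists (blue) reaches -1.61 or lower. The lists differ in the levels of their genes, and no gene shown passed the edgeR test.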

How the data were processed

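The tools listed are FastQC, Trim Galore, STAR, MultiQC and DESeq2, per the submitters' processing notes, which name the build mm9, while the series design text names Ensembl 90. Tool versions are not given in the sources used here. The deposited files hold raw read counts per gene, without strand and for each strand. The authors' deposited table repeats the unstranded counts (equal for all 52636 genes) and adds DESeq2-normalized values rounded to whole numbers (treated as a score), their mean as a signal, log2 fold changes, linear fold ratios and p-values, per the file headers. Reads not assigned to a gene (unmapped, multiply mapped, on no gene or on several genes), 21.1% to 23.1% per library, stayed out of library totals. Symbols matched 52403 gene IDs. Coordinates and exon lengths are from GENCODE M21 (GRCm38), joined through gene IDs and not used for counting.

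CPM used library totals. The genotype test was edgeR 4.0.16 (R 4.3.3) with TMM, filterByExpr (minimum count 10, total 15) and the robust quasi-likelihood F test, two-sided, without a block. Adjusted p-values are Benjamini-Hochberg over all 10216 genes tested, with calls under 0.05. Standard errors are the log2 fold change over the square root of F, and 95% intervals use the moderated degrees of freedom. The script was tested on simulated counts. Alternatives were DESeq2 1.42.0, limma-voom (limma 3.58.1), DESeq2 size factors, library totals only, other count filters, the replicate block, the strand columns and leaving out each library. The rule named all 10 members, Themis, and from each of 4 context lists the 2 genes with the smallest p. Members and lists were chosen with earlier results of these data known. A few items are not reported here.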

Additional observations from a re-analysis of the deposited data

How the results depend on the processing

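Across 13 alternatives, 125 of 130 log2 fold changes of single adaptor genes kept their sign, 0 passed, and the smallest adjusted p was 0.604, for Sit1 without replicate 2 of the Themis1-T-/- label. The other 5 changed sign. With single libraries left out, Lat ranged from -0.087 (without Vav1R63W replicate 2) to 0.24, Grap2 from -0.39 (without replicate 3 of the Themis1-T-/- label) to 0.77, and Sit1 from -0.64 to 0.39 (without replicate 2 of that label). Sla2 was at -0.16 in the strand column with more reads and -0.135 in the sum of both. The Sla2 alternatives differ from the unstranded count by the reads shared with Rab5if, and the cause of the other changes was not tested. Grap, Sla, Trat1, Sh2d2a, Lcp2 and Skap1 stayed positive in all 13, between 0.04 for Skap1 and 0.62 for Sla. Without overlap between groups, as for Grap, Sla, Trat1 and Sh2d2a, leaving out a library could hardly change the sign. Those fits therefore do not test it.

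DESeq2 called 206 genes where edgeR called 0, and the cause was not tested; leaving out single libraries gave 0 edgeR calls each time, but those fits set 2 libraries against 1, whose spread is taken from the other group, and so say nothing about stability. The median log2 fold change of the 10 genes was 0.17 to 0.35 with single libraries left out. Same-numbered libraries did not deviate together (Pearson r = 0.0126 across 10894 genes, which are not independent). This single correlation does not settle whether the numbers pair them, and the labels tie the numbers to no litter or day. With the replicate block there were 0 calls, a median of 0.25 and 9 of 10 positive. With TMM-scaled CPM, added after seeing the data, 5 adaptor genes lay above in both Themis1-T-/- libraries instead of 4, Sla2 being the additional one. The share of all genes on that scale was not computed, so this count cannot be set against a background. Depth was lowest for Grap2, with 237 to 479 reads per library, and the others had at least 1933.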
